A study of Mus musculus with 18 samples.

Results

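Monocytes and neutrophils from the bone marrow of C57BL/6 mice were compared by the messenger RNA of sorted cells. The comparison rests on 4 of the 18 libraries of the series, monocyte replicates 1 and 2 and neutrophil replicates 1 and 3, which were chosen by the population named in their labels. The other 14 libraries hold 7 populations of tissue-resident macrophages, and the series asks how the tissue shapes the macrophages that live in it. All 4 libraries belong to what the labels call experiment 2, together with macrophages of the spleen red pulp, liver and lung. No treatment, genotype, age or sex is given in the labels, the sources used here do not give the sort's surface markers, and nothing says that the libraries of a population came from separate animals. The p-values below therefore measure the spread between libraries of the same population, which may be technical. That spread was pooled over all 9 populations of the series and not taken from these 4 libraries alone. Per the labels, RNA with a polyA tail was captured on oligo(dT) beads, matched in amount between samples by qPCR of actin B, copied with indexed primers, pooled and amplified linearly by T7 transcription.

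Both cell types arise in the bone marrow from a shared granulocyte-monocyte progenitor. A neutrophil fills its granules in sequence as it matures: primary (azurophil) granules at the promyelocyte stage, secondary (specific) granules in myelocytes, and tertiary (gelatinase) granules and secretory vesicles later, so the RNA of a granule protein marks a window of maturation. Classical monocytes carry high Ly6C and CCR2, leave the marrow in response to CCR2 ligands, and can become macrophages or dendritic cells in tissue.

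The values are normalised reads per gene, and differences are given on the log2 scale with their standard error (± SE) after a pseudocount of 1.11 normalised reads was added, so the difference of a gene at low levels is understated. A gene was called at a Benjamini-Hochberg adjusted p (limma) under 0.05 with a log2 difference of at least 1, and "higher" is used below for called genes. Of 12014 genes tested, 1461 (12.2%) were higher in monocytes and 1360 (11.3%) were higher in neutrophils. The deposited columns do not have equal totals: they sum to 1056337 and 1098704 normalised reads in monocytes and to 1818206 and 1883301 in neutrophils, while the other 14 libraries lie between 938759 and 1215278. The 50 genes with the highest level in neutrophils held 38.8% and 39.9% of the reads of the neutrophil libraries and 12.7% and 12.8% of those of the monocyte libraries. With equal column totals 2964 genes (24.7%) were higher in monocytes and 622 (5.18%) in neutrophils, and the median log2 difference over all tested genes, monocytes minus neutrophils, moved from 0 to 0.66. Each of the 1461 genes higher in monocytes on the deposited scale was called in the same direction with equal totals, as were 622 of the 1360 higher in neutrophils, and none was called in the opposite direction. Counts with equal totals are given below where they differ from the deposited ones. The counts of each list are to be read beside the shares of all tested genes on the same scale. In bulk samples, fewer cells of a type and less RNA per cell cannot be told apart.

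The calls were spread over a wide range of size. Among the genes higher in neutrophils 432 differed by 3 or more on the log2 scale and 106 by 5 or more, against 364 and 24 of those higher in monocytes. In all, 213 genes called for monocytes were listed at 0 in both neutrophil libraries and 125 called for neutrophils were listed at 0 in both monocyte libraries. Reads in genes came to 953247 and 1108692 in monocytes and 1106988 and 719537 in neutrophils, so a gene listed at 0 may still stand at up to 2.56 and 2.30 normalised reads (3 reads) in monocytes and 4.13 and 6.59 in neutrophils, counting error alone. Leaving out 1 library moved the number of genes higher in monocytes: it was 1341 without neutrophil replicate 1, 886 without neutrophil replicate 3, 867 without monocyte replicate 1 and 849 without monocyte replicate 2. The plot of levels places neutrophil granule genes far above the line of equal level and Ccr2, Fn1 and S100a4 far below it.

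**Figure D1:**
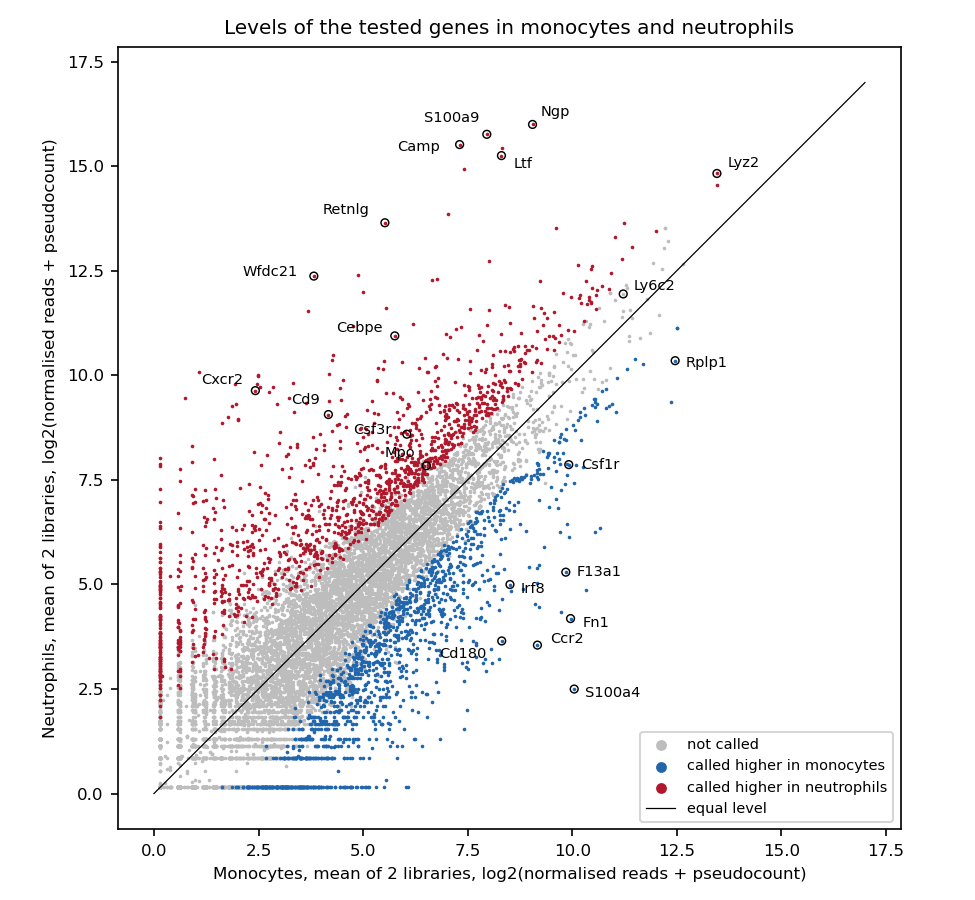
Each point is 1 of the 12014 tested genes, with its mean level in 2 monocyte libraries on the x axis and in 2 neutrophil libraries on the y axis, both as log2 of normalised reads plus 1.11. Red points (1360) were called higher in neutrophils and blue points (1461) higher in monocytes; the line marks equal level.

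The marker genes chosen for each cell type went with the labels, with 1 exception. In the longer list of classical monocyte markers below, Clec12a was higher in neutrophils and Emb was not called. All 10 analysed neutrophil markers (Camp, Ltf, Ngp, Cxcr2, Csf3r, S100a8, S100a9, Mmp8, Mmp9 and Retnlg) were higher in neutrophils, and Ly6g was not analysed here. Of 5 monocyte markers, Ccr2, Csf1r, F13a1 and Ms4a4c were higher in monocytes. Ly6c2, a chain of the Ly6C antigen of classical monocytes, stood at 2085 and 2684 normalised reads in monocytes and 4086 and 3800.3 in neutrophils. It was not called (log2 difference, monocytes minus neutrophils, -0.74 ± 0.48, adjusted p = 0.303), and its sign depended on the scaling (0.17 with equal totals). Its near-identical copy Ly6c1 makes its reads uncertain.

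Secondary granule genes gave the lowest median difference of the lists examined. All 15 tested members were higher in neutrophils, against 11.3% of all tested genes, with a median log2 difference, monocytes minus neutrophils, of -5.80 against 0 over all tested genes, and 11 remained called with equal totals. Together they held 2.17% and 1.77% of all normalised reads in monocytes and 16.2% and 18.9% in neutrophils. Camp, the precursor of the cathelicidin antimicrobial peptide, stood at 178 and 137 normalised reads in monocytes and 38601 and 55201 in neutrophils. Neither group overlapped the other, and the log2 difference was 8.20 ± 0.94 (adjusted p = 3.93e-06). Ltf, the iron-binding protein lactoferrin, stood at 412 and 220.2 normalised reads in monocytes and 36042 and 42052 in neutrophils, a log2 difference of 7.01 ± 0.75 (adjusted p = 1.71e-06). Both neutrophil libraries were again above both monocyte libraries, as they were for all 1360 genes called for neutrophils. A call favours genes without overlap, so this separation adds no support to it.

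The other members of the list spanned low and high levels. Lcn2, which binds bacterial siderophores, was higher by 7.14 ± 0.69 on the log2 scale, from 395 and 247 to 40862 and 47696 normalised reads. Ngp, a cathelicidin relative and neutrophilic granule protein, stood at 656 and 403 normalised reads in monocytes and 56718 and 74200.5 in neutrophils, and the peptidoglycan-binding Pglyrp1 at 113 and 147 normalised reads in monocytes and 15551 and 14345 in neutrophils. The surface protein Cd177, the collagenase Mmp8 and the carcinoembryonic antigen family member Ceacam10 were higher in neutrophils by 5.61 ± 0.76, 5.55 ± 0.93 and 7.01 ± 0.73. Orm1 and Olfm4 were listed at 0 in both monocyte libraries. In neutrophils Orm1, an acute phase protein, stood at 322 and 197 and Olfm4, found in a subset of neutrophils, at 53.7 and 68.1. Chil3, a chitinase-like protein, was higher by 3.94 ± 0.94 (adjusted p = 0.00457), but its call ended without monocyte replicate 2. The calls of Fcnb, Hp, Cybb and Lyz2 ended with equal totals, and those of Fcnb and Hp also when any 1 of the 4 libraries was left out. Lysozyme 2 (Lyz2), which both cell types make, stood at 11974 and 10566 normalised reads in monocytes and 26470.1 and 31626 in neutrophils, a log2 difference of 1.36 ± 0.29 that fell to 0.46 with equal totals. Under quantile normalisation its direction turned, to a log2 difference, monocytes minus neutrophils, of 0.96.

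Primary granule genes did not follow the secondary ones. Of 11 tested members 2 were higher in monocytes, 4 in neutrophils and 5 were not called, with a median of -0.21. With equal totals 4 were higher in monocytes and 3 in neutrophils. Shares of all tested genes were 12.2% and 11.3%, or 24.7% and 5.18% with equal totals. The serine proteases Elane, Prtn3 and Ctsg were not called. Neutrophil elastase (Elane) stood at 349 and 497 normalised reads in monocytes and 299.9 and 194 in neutrophils (adjusted p = 0.257), and proteinase 3 (Prtn3) at 514 and 792 normalised reads in monocytes and 313 and 30.8 in neutrophils (adjusted p = 0.0638). For both genes the 2 neutrophil libraries lay below the 2 monocyte libraries, and both were called higher in monocytes with equal totals. The levels of Prtn3, of cathepsin G (Ctsg, 139 and 8.79 in neutrophils and 92.1 and 141 in monocytes) and of myeloperoxidase (Mpo, 431 and 24.2 in neutrophils and 77.1 and 104 in monocytes) were far lower in neutrophil replicate 3 than in replicate 1. Neutrophil replicate 1 also had the highest sums of B cell markers (306 normalised reads) and erythroid markers (44120) of the 4 libraries, and their part in these levels was not tested. Without neutrophil replicate 1, 4 members of the list were higher in monocytes, and without neutrophil replicate 3 or monocyte replicate 1 there was 1.

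The other members of the primary granule list included the 4 that were higher in neutrophils. The tetraspanin Cd63 of the granule membrane stood at 5.97 and 2.30 normalised reads in monocytes and 266 and 307 in neutrophils, a log2 difference of 5.87 ± 0.45 (adjusted p = 5.90e-08). Serpinb1a, an inhibitor of neutrophil serine proteases, differed by 4.54 ± 0.74, and the protease Prss57 by 4.14 ± 0.56. For the proteoglycan Srgn, which packs granule proteins, the difference of 1.73 ± 0.39 was no longer called with equal totals. In the other direction Ctsc, the dipeptidyl peptidase that activates granule serine proteases, stood at 476 and 433 normalised reads in monocytes and 26.2 and 30.8 in neutrophils, higher in monocytes by 3.95 ± 0.27 (adjusted p = 1.45e-08).

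Among tertiary granule and secretory vesicle genes, 7 of 12 tested were higher in neutrophils on either scaling and none in monocytes (median -3.15). Gelatinase B (Mmp9), the enzyme that names these granules, stood at 37.5 and 19.2 normalised reads in monocytes and 4463 and 6363 in neutrophils, a log2 difference of 7.57 ± 0.46 (adjusted p = 9.48e-09). The membrane-bound Mmp25 and the sheddase Adam8 differed by 6.88 ± 0.71 and 7.05 ± 1.03. Itgam, the alpha chain of the complement receptor Mac-1 stored in these compartments, stood at 128 and 89 normalised reads in monocytes and 554 and 845 in neutrophils, a difference of 2.67 ± 0.43. Hsd11b1, which activates glucocorticoids, differed by 3.64 ± 0.61. The vesicle protein Vamp2, the metal transporter Slc11a1, the complement regulator Cr1l and the LPS co-receptor Cd14 were not called. Arg1, Alpl and Mme were listed at 0 in all 4 libraries. The plot of granule genes shows the neutrophil libraries far to the right of the monocyte libraries for most secondary and tertiary members, and mixed among them for Mpo and Ctsg.

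**Figure D2:**
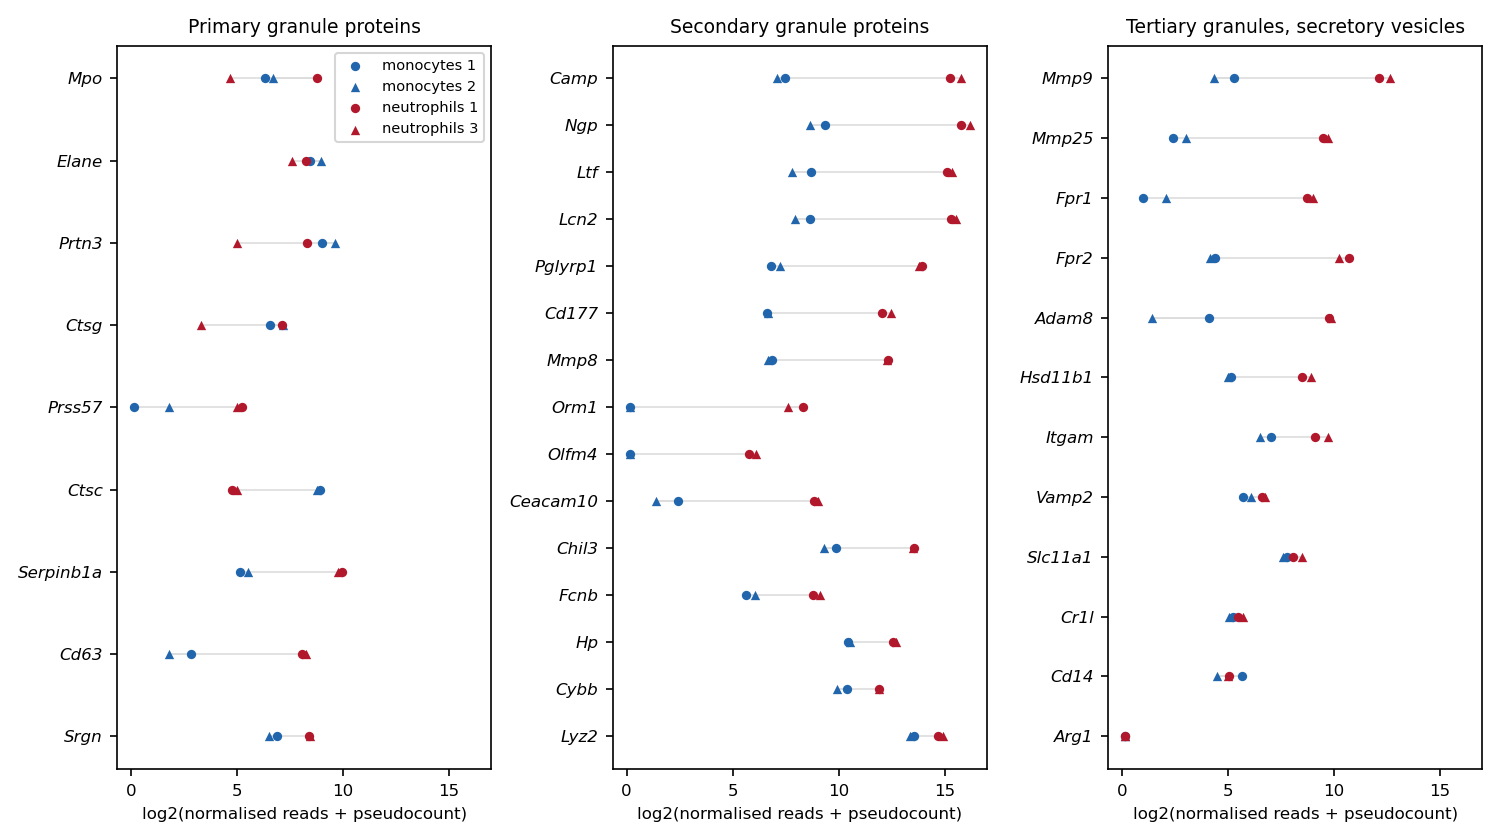
Levels of granule genes in each library, as log2 of normalised reads plus 1.11, with 2 monocyte libraries in blue and 2 neutrophil libraries in red; a grey line joins the lowest and the highest library of a gene. Neutrophil libraries lie at higher levels than monocyte libraries for each of the 15 secondary granule genes. The same holds for all 1360 genes called for neutrophils, because a call favours genes without overlap. The libraries interleave for Mpo and Ctsg in the primary panel.

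The S100 genes, which encode small calcium-binding proteins, split by member: 4 of 11 tested were higher in neutrophils and 2 in monocytes, on either scaling. Shares of all tested genes were 11.3% and 12.2%, or 5.18% and 24.7% with equal totals. The monocyte count lay below its share with equal totals. S100a8 and S100a9, the chains of calprotectin, a zinc- and manganese-binding antimicrobial protein of the neutrophil cytosol, were among those higher in neutrophils. S100a9 stood at 249 and 246 normalised reads in monocytes and 51289 and 59879.6 in neutrophils, a log2 difference of 7.80 ± 0.77 (adjusted p = 9.41e-07), and S100a8 differed by 7.50 ± 0.78. S100a11 and S100a6 were higher in neutrophils by 3.81 ± 0.39 and 1.94 ± 0.37. S100a4, linked to cell motility, had the largest fitted difference towards monocytes of all called genes: 1156 and 959 normalised reads in monocytes and 6.89 and 2.20 in neutrophils, a difference of 7.68 ± 0.48 (adjusted p = 9.48e-09). S100a10, the partner of annexin A2, was higher in monocytes by 5.00 ± 0.51. The whole S100 list held 5.72% and 6.40% of all normalised reads in neutrophils and 0.484% and 0.418% in monocytes.

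Promoter sequences are shown for 7 of these genes, 4 secondary granule genes, 1 primary granule gene and an S100 gene of each direction, to set secondary granule genes of high level beside a primary granule gene and the S100 genes. They are RefSeq sequences of mouse build GRCm38.p6, from 250 bases before to 50 after the start site, 5′ to 3′ on the gene's strand. Capitals mark matches, on either strand, to TTGCNNAA, a pattern of the kind bound by C/EBP factors, or GAGGAAG, of the kind bound by PU.1; the patterns were chosen after these promoters had been searched with several others, and no matches overlapped. Camp (chr9:109849407-109849706, minus strand) holds neither pattern. Ltf (chr9:111019042-111019341, plus strand) holds the C/EBP pattern at -75, Ngp (chr9:110419558-110419857, plus strand) at -138 and -11, and S100a9 (chr3:90695672-90695971, minus strand) at -236. Lcn2 (chr2:32387690-32387989, minus strand) holds the C/EBP pattern at -216 and the PU.1 pattern at -21. Elane (chr10:79886062-79886361, plus strand) holds the PU.1 pattern at -85 and S100a4 (chr3:90603520-90603819, plus strand) at 18.
Camp: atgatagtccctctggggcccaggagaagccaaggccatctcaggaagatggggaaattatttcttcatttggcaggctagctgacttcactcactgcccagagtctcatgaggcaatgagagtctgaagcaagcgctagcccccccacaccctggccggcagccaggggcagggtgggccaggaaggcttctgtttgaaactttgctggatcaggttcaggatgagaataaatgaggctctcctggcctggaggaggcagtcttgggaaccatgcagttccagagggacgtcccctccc
Ltf: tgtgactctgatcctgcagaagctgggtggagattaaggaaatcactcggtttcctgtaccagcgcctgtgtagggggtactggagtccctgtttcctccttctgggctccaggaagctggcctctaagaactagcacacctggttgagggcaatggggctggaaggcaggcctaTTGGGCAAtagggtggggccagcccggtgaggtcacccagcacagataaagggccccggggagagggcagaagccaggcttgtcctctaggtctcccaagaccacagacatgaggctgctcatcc
Ngp: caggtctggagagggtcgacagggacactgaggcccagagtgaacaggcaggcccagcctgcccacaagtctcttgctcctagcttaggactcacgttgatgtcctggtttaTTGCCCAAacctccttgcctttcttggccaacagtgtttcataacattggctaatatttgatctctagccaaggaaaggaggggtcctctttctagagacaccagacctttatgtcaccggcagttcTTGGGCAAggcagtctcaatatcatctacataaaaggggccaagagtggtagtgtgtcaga
Lcn2: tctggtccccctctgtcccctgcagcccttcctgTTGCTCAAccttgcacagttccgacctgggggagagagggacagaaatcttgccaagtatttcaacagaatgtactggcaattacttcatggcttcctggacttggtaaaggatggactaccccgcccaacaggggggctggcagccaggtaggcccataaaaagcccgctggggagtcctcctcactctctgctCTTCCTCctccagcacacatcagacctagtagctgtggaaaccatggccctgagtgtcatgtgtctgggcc
S100a9: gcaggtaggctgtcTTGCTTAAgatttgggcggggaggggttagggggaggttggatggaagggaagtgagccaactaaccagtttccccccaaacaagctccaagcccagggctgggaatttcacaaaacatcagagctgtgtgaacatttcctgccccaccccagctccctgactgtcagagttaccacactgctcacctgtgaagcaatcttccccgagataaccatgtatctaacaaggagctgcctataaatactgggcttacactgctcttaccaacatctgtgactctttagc
Elane: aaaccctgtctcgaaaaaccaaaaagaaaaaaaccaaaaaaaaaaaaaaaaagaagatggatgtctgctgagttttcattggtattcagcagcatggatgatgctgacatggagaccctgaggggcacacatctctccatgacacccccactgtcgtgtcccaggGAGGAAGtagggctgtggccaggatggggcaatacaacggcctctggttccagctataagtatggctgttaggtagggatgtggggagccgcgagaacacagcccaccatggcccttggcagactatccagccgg
S100a4: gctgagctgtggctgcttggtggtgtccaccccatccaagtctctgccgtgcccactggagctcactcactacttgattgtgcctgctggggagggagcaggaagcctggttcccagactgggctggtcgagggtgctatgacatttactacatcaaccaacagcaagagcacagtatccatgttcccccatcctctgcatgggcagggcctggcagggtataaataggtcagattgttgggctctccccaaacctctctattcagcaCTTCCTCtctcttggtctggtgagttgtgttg
Over the lists, the C/EBP pattern was in 5 of 14 secondary granule promoters (Fcnb, Lcn2, Ltf, Mmp8 and Ngp) and 1 of 10 primary granule promoters. It was in 3 of 20 promoters of mature neutrophil genes and 1 of 22 of classical monocyte markers, against 10.8% of all 32851 promoters. The PU.1 pattern was in 4 of 14 secondary granule promoters and 6 of 10 primary granule promoters (Cd63, Ctsc, Ctsg, Elane, Mpo and Prtn3). It was in 3 of 20 promoters of mature neutrophil genes, against 13.6% of all. Of 22 promoters of classical monocyte markers 7 held it, those of Clec12a, Ctss, F13a1, Fcgr1 and Ly6c2. A gene with several promoters was counted once for each. These are matches of letters, not binding sites. Promoters were found for 13 of 15 secondary and 9 of 12 primary granule genes. They were found for 20 of 26 mature neutrophil genes and 18 of 20 classical monocyte markers.

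Genes of late neutrophil maturation went the same way as the secondary granule genes. Of 26 tested, 19 were higher in neutrophils and none in monocytes (median -4.17), and 18 were with equal totals. Wfdc21, a whey acidic protein of the protease inhibitor type, stood at 15.3 and 10.7 normalised reads in monocytes and 5129 and 5474 in neutrophils, a log2 difference of 8.57 ± 0.83 (adjusted p = 7.29e-07). Retnlg, a resistin-like secreted protein, stood at 52.9 and 36.8 normalised reads in monocytes and 11701 and 13956 in neutrophils, a difference of 8.14 ± 0.75. G0s2, an inhibitor of lipolysis, Hdc, which makes histamine, and the protease Asprv1 differed by 7.67 ± 0.98, 7.26 ± 0.62 and 7.04 ± 0.73. Their monocyte levels were each below 5 normalised reads. Slpi, the secretory leukocyte protease inhibitor, was also present in monocytes: 170.5 and 206 normalised reads in monocytes and 3149.9 and 3038 in neutrophils.

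Receptors of the same list were higher in neutrophils as well. Trem1, which amplifies inflammatory signals, and the lectin Clec4d differed by 5.99 ± 0.84 and 5.43 ± 0.80. Il1r2, the decoy receptor for interleukin 1, stood at 5.97 and 1.53 normalised reads in monocytes and 128 and 207 in neutrophils, and Trem3 at 40.9 and 46.8 normalised reads in monocytes and 1305 and 1303 in neutrophils. Mcemp1 and Grina, both membrane proteins, differed by 3.39 ± 0.49 and 3.91 ± 0.30, and the interferon-induced Ifitm1 by 4.31 ± 0.78. The inhibitory receptor Pirb (1.53 ± 0.24) was the member whose call ended with equal totals. The chemokine Ccl6 stood at 720.3 and 663 normalised reads in monocytes and 1068 and 1058 in neutrophils and was not called, nor were Lst1, Ifitm2, Dusp1, Ptgs2 and Lilrb4a.

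Chemoattractant receptors divided between the cells: 9 of 27 tested were higher in neutrophils and 5 in monocytes, and 8 and 6 with equal totals. For neutrophils 11.3% of all tested genes were called, or 5.18% with equal totals, and for monocytes 12.2%, or 24.7%. Cxcr2, which binds ELR-type CXC chemokines and draws neutrophils out of the marrow, stood at 8.52 and 0 normalised reads in monocytes and 613 and 973 in neutrophils, a log2 difference of 7.89 ± 0.88 (adjusted p = 3.01e-06). The formyl peptide receptors Fpr1 and Fpr2, which detect bacterial peptides, differed by 7.35 ± 0.49 and 6.20 ± 0.54. The leukotriene B4 receptor Ltb4r1 stood at 328 and 341 normalised reads in monocytes and 3066 and 3508 in neutrophils, and Ccr1 at 53.7 and 50.6 normalised reads in monocytes and 328 and 242 in neutrophils. P2ry13, a receptor for ADP, was higher in neutrophils by 3.24 ± 0.44, and the sphingosine receptor S1pr1 was listed at 0 in monocytes and at 9.65 and 11 in neutrophils. C5ar1, the C5a receptor, also passed at 34.4 and 19.8 in neutrophils, and S1pr4 at 763 and 591. The call of C5ar1 ended without neutrophil replicate 1 or either monocyte library, and that of S1pr4 with equal totals or without any 1 of the 4 libraries. Cxcr4, which holds both cell types in the marrow, stood at 32.4 and 49.1 normalised reads in monocytes and 123 and 90.1 in neutrophils and was not called.

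On the monocyte side, Ccr2 stood at 609 and 539 normalised reads in monocytes and 12.4 and 8.79 in neutrophils, a log2 difference of 5.63 ± 0.49 (adjusted p = 2.15e-07). Cx3cr1, the fractalkine receptor, stood at 423 and 249.8 normalised reads in monocytes and 59.3 and 75.8 in neutrophils, a difference of 2.26 ± 0.53 that was no longer called without monocyte replicate 1. P2ry6, a receptor for UDP, was higher in monocytes by 3.05 ± 0.51. Cmklr1, the chemerin receptor, at 1.70 and 2.30 in monocytes, and Cxcr3, at 4.26 and 9.97, were called and listed at 0 in neutrophils. The level of Cmklr1 lay below the 3-read floor of both neutrophil libraries (4.13 and 6.59), so its zeros do not show a lower level. Both calls ended when either neutrophil replicate or monocyte replicate 2 was left out. Without neutrophil replicate 3, monocyte replicate 1 or monocyte replicate 2, 3 chemoattractant receptors were higher in monocytes.

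Classical monocyte markers were higher in monocytes in 17 of 20 cases on either scaling, against 12.2% of all tested genes on the deposited scale, with a median log2 difference of 3.43, and leaving out any of the 4 libraries kept that count at 17. They held 1.84% and 1.71% of all normalised reads in monocytes and 0.409% and 0.377% in neutrophils. Fibronectin (Fn1), a matrix protein, stood at 1123 and 868 normalised reads in monocytes and 16.5 and 17.6 in neutrophils, a difference of 5.77 ± 0.43 (adjusted p = 4.67e-08). The chemokine Ccl9 stood at 782 and 929.9 normalised reads in monocytes and 31.7 and 6.59 in neutrophils and the LIM protein Crip1 at 1164 and 1406 normalised reads in monocytes and 31.7 and 24.2 in neutrophils. For each of these genes both monocyte libraries were far above both neutrophil libraries. The groups did not overlap for 1460 of the 1461 genes called for monocytes. A call favours such genes, so the lack of overlap adds no support to it. F13a1, the A subunit of coagulation factor XIII, stood at 982 and 857 normalised reads in monocytes and 34.4 and 41.8 in neutrophils, a difference of 4.56 ± 0.75.

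The membrane proteins of the MS4A family, Ms4a4c, Ms4a6b and Ms4a6c, were higher in monocytes by 4.73 ± 0.74, 4.74 ± 0.53 and 4.76 ± 0.32. The cysteine protease Ctss, the high-affinity IgG receptor Fcgr1 and the TLR accessory protein Ly86 differed by 3.48 ± 0.33, 3.38 ± 0.37 and 2.85 ± 0.33. Csf1r, the receptor for CSF1 on which mononuclear phagocytes depend, was present in both cells, at 992 and 939.8 normalised reads in monocytes and 218 and 246 in neutrophils, a difference of 2.06 ± 0.25 (adjusted p = 8.49e-06). Psap, the saposin precursor, and Tgfbi, a matrix protein induced by TGF-beta, differed by 1.70 ± 0.28 and 1.48 ± 0.25. The proteoglycan Vcan was low, at 8.52 and 6.14 in monocytes and listed at 0 in neutrophils, close to the 3-read floor of neutrophil replicate 3 (6.59). Clec12a, an inhibitory lectin, went the other way, at 130.4 and 117 normalised reads in monocytes and 528 and 453 in neutrophils, higher in neutrophils by 1.97 ± 0.39. The adhesion protein Emb was not called.

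Growth factor and cytokine receptors were split 7 to monocytes and 6 to neutrophils of 26 tested, and 8 to 4 with equal totals. The shares of all tested genes were 12.2% and 11.3%, or 24.7% and 5.18% with equal totals. The G-CSF receptor Csf3r, which drives granulopoiesis, stood at 66.5 and 63.4 normalised reads in monocytes and 272 and 497 in neutrophils, higher in neutrophils by 2.48 ± 0.50 (adjusted p = 0.00122). Both chains of the interleukin 18 receptor were listed at 0 in monocytes, with Il18rap at 113 and 136 and Il18r1 at 6.89 and 15.4 in neutrophils. Monocytes had more of Il6st, the shared signalling chain of the interleukin 6 family (3.76 ± 0.37), of the TNF receptor Tnfrsf1b (2.96 ± 0.35), of the interleukin 10 receptor Il10ra (2.73 ± 0.40) and of the interferon gamma receptor Ifngr1 (2.09 ± 0.35). The other TNF receptor, Tnfrsf1a, and the shared beta chain Csf2rb were higher in neutrophils by 1.06 ± 0.29 and 1.48 ± 0.48 on the deposited scale, and both calls ended with equal totals, without neutrophil replicate 3 and without monocyte replicate 2. The GM-CSF receptor alpha chain Csf2ra stood at 781 and 593 normalised reads in monocytes and 716 and 1115 in neutrophils and was not called.

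Lineage transcription factors held members of both directions: 15 of 79 tested were higher in monocytes and 20 in neutrophils, or 26 and 11 with equal totals. Among all tested genes 12.2% and 11.3% were, or 24.7% and 5.18% with equal totals. Cebpe, which is required for secondary granules, stood at 78.4 and 27.6 normalised reads in monocytes and 1970.4 and 1965 in neutrophils, a log2 difference of 5.36 ± 0.87 (adjusted p = 1.76e-04). Its relative Cebpd stood at 236 and 301 normalised reads in monocytes and 1213 and 1242 in neutrophils, higher in neutrophils by 2.20 ± 0.28. Mxd1, a MYC antagonist of terminal differentiation, and the chromatin organiser Satb1 differed by 5.07 ± 0.98 and 4.95 ± 0.98. The ETS factor Ets2 and Stat4, which acts downstream of interleukin 12, were higher in neutrophils by 4.71 ± 0.58 and 3.93 ± 0.81, and Lmo4 by 2.21 ± 0.35. Ets1, Dach1 and Gfi1b were listed at 0 in both monocyte libraries. In neutrophils Ets1 stood at 28.9 and 52.8, Dach1 at 42.7 and 15.4 and Gfi1b at 8.27 and 11.

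Of the factors tied to monocytes, Irf8, which directs the progenitor towards monocytes and away from neutrophils, stood at 389.6 and 338 normalised reads in monocytes and 44.1 and 17.6 in neutrophils, a difference of 3.65 ± 0.42 (adjusted p = 4.82e-06). Klf4, needed for monocyte differentiation in mice, stood at 823 and 457 normalised reads in monocytes and 57.2 and 59.3 in neutrophils, a difference of 3.37 ± 0.48. Irf5, which acts in Toll-like receptor signalling, and the repressor Zeb2 were higher in monocytes by 3.75 ± 0.33 and 5.18 ± 0.53. Cebpa, needed to form granulocyte-monocyte progenitors, and the retinoid receptor Rxra differed by 1.73 ± 0.34 and 1.82 ± 0.27. Cebpb, associated with survival of Ly6C-low monocytes in mice, stood at 264 and 305 normalised reads in monocytes and 64.8 and 193 in neutrophils, a call for monocytes that ended without neutrophil replicate 1 or either monocyte library. PU.1 (Spi1), the shared myeloid factor, stood at 286 and 387 normalised reads in monocytes and 831 and 996 in neutrophils, called for neutrophils on the deposited scale (1.45 ± 0.26) and not with equal totals; the same held for Klf6 and Jund. Runx1 and Fos were not called. Without monocyte replicate 1 there were 7 factors higher in monocytes, and without monocyte replicate 2 there were 9. The plot of markers, receptors and factors shows these genes library by library.

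**Figure D3:**
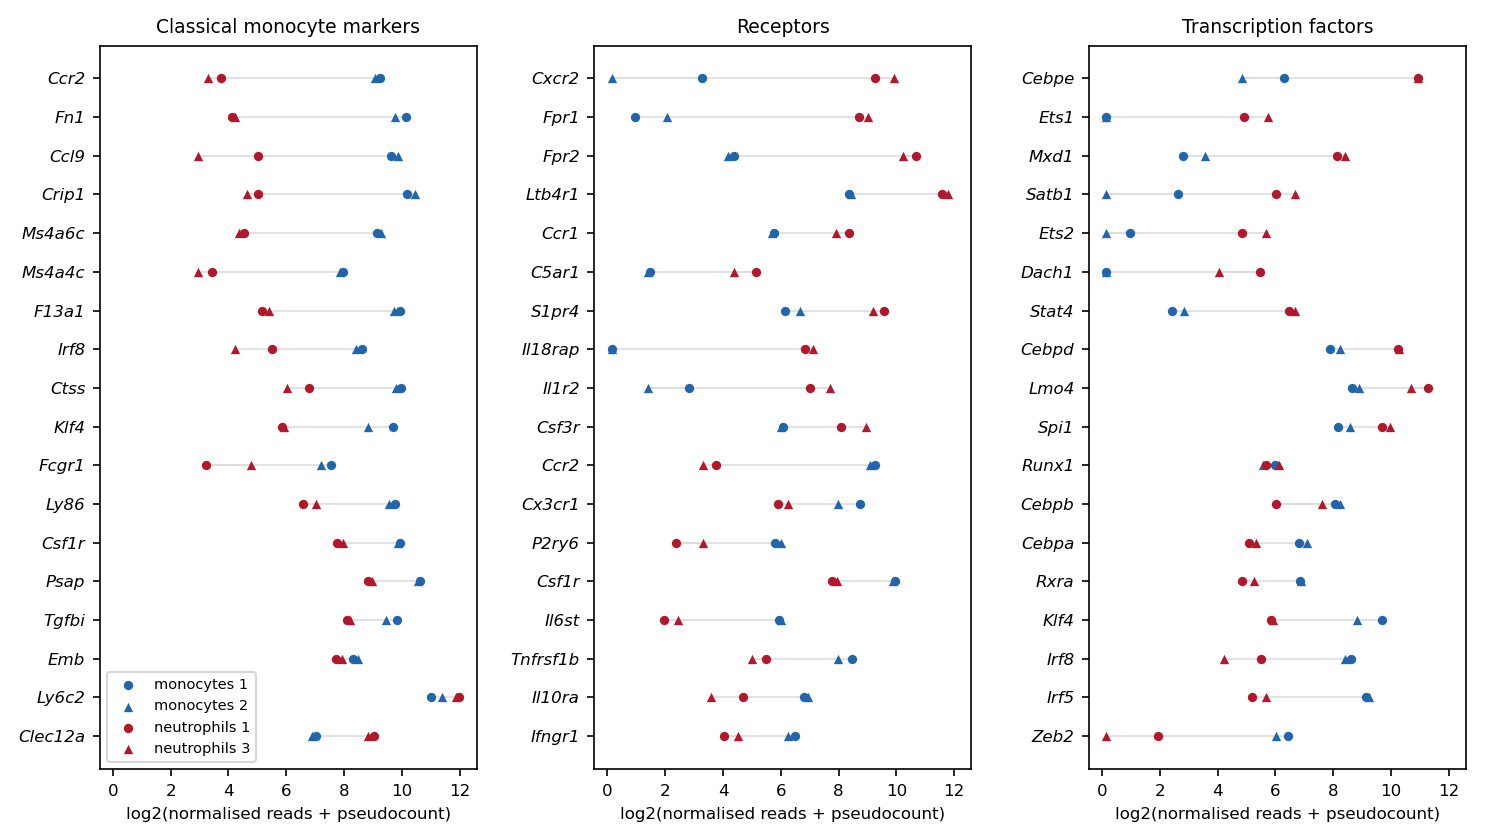
Levels of classical monocyte markers, receptors and transcription factors in each library, as log2 of normalised reads plus 1.11, with monocytes in blue and neutrophils in red; a grey line joins the lowest and the highest library of a gene. Cxcr2, Fpr1 and Cebpe are far higher in both neutrophil libraries, Ccr2, Fn1 and Irf8 in both monocyte libraries, and the libraries of Runx1 interleave.

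The phagocyte NADPH oxidase, which makes superoxide, had 7 of 10 tested genes higher in neutrophils and none in monocytes (median -1.64); 4 passed with equal totals. Those 4 were the cytosolic subunit Ncf1 (399 and 316 normalised reads in monocytes and 2769 and 3532 in neutrophils, a difference of 3.13 ± 0.28), its partner Ncf4 (2.05 ± 0.33), the GTPase Rac2 (3.02 ± 0.24) and the proton channel Hvcn1 (3.19 ± 0.43), which balances the charge that the oxidase moves. The membrane subunits Cybb and Cyba passed on the deposited scale at 1.75 ± 0.30 and 1.53 ± 0.30. Rac1, the GTPase used in other cells, stood at 461 and 523 normalised reads in monocytes and 489 and 473 in neutrophils and was not called.

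Carbohydrate metabolism genes were also shifted. The pentose phosphate pathway, which supplies the NADPH used by the oxidase, had 4 of 8 tested genes higher in neutrophils, 3 with equal totals: transketolase Tkt (1086 and 1185 normalised reads in monocytes and 6017 and 6695 in neutrophils, a difference of 2.48 ± 0.25), Pgd (2.17 ± 0.24) and G6pdx (1.96 ± 0.30). Of 31 glycolysis and glycogen genes 18 were higher in neutrophils and 2 in monocytes on the deposited scale (median -1.48), and 7 and 3 with equal totals. The glucose transporter Slc2a3 stood at 2.56 and 3.07 normalised reads in monocytes and 575 and 703 in neutrophils, a difference of 7.35 ± 0.77 (adjusted p = 1.43e-06). Glycogen synthase Gys1 and the liver-type glycogen phosphorylase Pygl were both higher in neutrophils, by 4.00 ± 0.47 and 2.86 ± 0.28, while the brain-type phosphorylase Pygb was higher in monocytes by 2.29 ± 0.41. The hexokinase Hk3 and the isomerase Gpi1 differed by 2.80 ± 0.28 and 2.34 ± 0.25 towards neutrophils. Without neutrophil replicate 1 or monocyte replicate 2, 1 gene of the list was higher in monocytes.

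Pattern recognition receptors and their signalling proteins were mixed, with 12 of 49 tested higher in monocytes and 11 in neutrophils, or 19 and 6 with equal totals. Beside them stand 12.2% and 11.3% of all tested genes, or 24.7% and 5.18% with equal totals. Cd180, a Toll-like receptor relative that pairs with Ly86, stood at 326 and 309 normalised reads in monocytes and 20.7 and 2.20 in neutrophils, a log2 difference of 5.23 ± 0.59 (adjusted p = 3.67e-06). Tlr1, a partner of TLR2, and the lectin Clec4a3 were higher in monocytes by 3.81 ± 0.49 and 4.37 ± 0.44, and the lectin Clec10a was listed at 0 in neutrophils and stood at 27.3 and 7.67 in monocytes. Nlrp12, a regulatory NOD-like receptor, was listed at 0 in monocytes and stood at 51 and 30.8 in neutrophils. The adaptors Tyrobp (3895 and 3898 normalised reads in monocytes and 5844 and 7308 in neutrophils) and Myd88 and the receptor Tlr13 were not called. Without neutrophil replicate 3 or monocyte replicate 2, 7 members of the list were higher in neutrophils.

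Fc receptors held members of both directions. Of 8 tested, 2 were higher in monocytes and 3 in neutrophils, or 3 and 1 with equal totals. All tested genes gave 12.2% and 11.3%, or 24.7% and 5.18% with equal totals. Fcgr4 stood at 11.1 and 5.37 normalised reads in monocytes and 178 and 202 in neutrophils, higher in neutrophils by 4.42 ± 0.52 (adjusted p = 5.71e-06). Fcgr1 (188 and 147 normalised reads in monocytes and 8.27 and 26.4 in neutrophils) and the neonatal Fc receptor Fcgrt (1.53 ± 0.33) were higher in monocytes. The low-affinity Fcgr3 and the shared signalling chain Fcer1g passed for neutrophils on the deposited scale, at 1.54 ± 0.27 and 1.30 ± 0.37, and not with equal totals; the call of Fcer1g also ended without neutrophil replicate 3 or either monocyte library.

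Adhesion and migration genes were called for neutrophils in 19 of 41 cases and for monocytes in 5, or 13 and 7 with equal totals. The monocyte counts lay near or below the 12.2% of all tested genes, or 24.7% with equal totals. For neutrophils those shares were 11.3% and 5.18%. The integrin chain relative Itgb2l stood at 0.852 and 4.60 normalised reads in monocytes and 728 and 1055 in neutrophils, a difference of 8.04 ± 0.85 (adjusted p = 1.71e-06). The tetraspanins Cd9 and Cd81 stood at 15.8 and 18 normalised reads in monocytes and 464 and 602 in neutrophils for Cd9 and 0.852 and 2.30 normalised reads in monocytes and 78.5 and 108 in neutrophils for Cd81. Cd24a, a small glycosylated anchor protein of granulocytes and other immature cells, was higher in neutrophils by 3.94 ± 0.39. In monocytes Itgb7, an integrin beta chain that pairs with alpha 4, was higher by 3.57 ± 0.44. Selplg, the selectin ligand, Tln1, which activates integrins, and Adgre5 were not called. Without neutrophil replicate 1 or monocyte replicate 1, 3 members were higher in monocytes.

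Of 20 tested protease inhibitors 2 were higher in monocytes, or 4 with equal totals, below the 12.2% and 24.7% of all tested genes. In neutrophils 7 were higher on either scaling, against 11.3% and 5.18% of all tested genes. Besides Wfdc21, Slpi and Serpinb1a these were Timp2, an inhibitor of metalloproteinases (4.53 ± 0.42), Serpinb6a (2.72 ± 0.31) and the stefins Stfa2l1 (5.40 ± 0.84) and Stfa2, which was listed at 0 in monocytes and at 20.0 and 25.3 in neutrophils. The stefin genes are near-identical copies, so their reads are uncertain. Cystatin C (Cst3) stood at 2360.4 and 2875 normalised reads in monocytes and 1860.2 and 1767 in neutrophils and was not called. The monocyte count was 0 without neutrophil replicate 1 or monocyte replicate 1 and 1 without neutrophil replicate 3 or monocyte replicate 2.

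Lysosomal genes leaned to monocytes: 15 of 49 tested were higher there and 7 in neutrophils (median 0.61), or 28 and 1 with equal totals. All tested genes gave 12.2% and 11.3%, or 24.7% and 5.18% with equal totals. The neutrophil count on the deposited scale was near its share. With equal totals the median was 1.46, against 0.66 over all tested genes. Cathepsin A (Ctsa), the sterol carrier Npc2 and the macrosialin gene Cd68 were higher in monocytes by 2.31 ± 0.29, 2.17 ± 0.35 and 2.32 ± 0.34. Cathepsin D (Ctsd) stood at 392 and 433 normalised reads in monocytes and 1618 and 1684 in neutrophils, higher in neutrophils by 2.00 ± 0.33, a call that held with equal totals. Grn, the progranulin gene, stood at 698 and 689.7 normalised reads in monocytes and 733 and 714 in neutrophils and was not called, nor were Laptm5 and Man2b1. Without monocyte replicate 1, 9 members were higher in monocytes.

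The 19 MHC class II and costimulation genes had a median log2 difference of -0.003, against 0 over all tested genes. With equal totals it was 0.64 against 0.66. On that scale 6 were higher in monocytes and none in neutrophils, against 24.7% and 5.18% of all tested genes. On the deposited scale 5 were higher in monocytes and none in neutrophils, against 12.2% and 11.3% of all tested genes. Fewer were higher in monocytes without neutrophil replicate 3 or either monocyte library. The 5 included 3 genes of antigen processing that held without any 1 of the 4 libraries, Ifi30, H2-DMa and Ctss. Ifi30, a thiol reductase that unfolds antigens, stood at 1604 and 1397 normalised reads in monocytes and 82.7 and 68.1 in neutrophils, a log2 difference of 4.30 ± 0.30 (adjusted p = 1.89e-08). H2-DMa, which loads peptides onto class II molecules, was higher by 2.55 ± 0.40. Ctss, whose values are given above, trims the invariant chain. The call of the costimulatory receptor Cd40 ended without neutrophil replicate 3 or monocyte replicate 2. The invariant chain Cd74 stood at 619.7 and 325 normalised reads in monocytes and 789.6 and 558 in neutrophils, and the class II chains H2-Ab1 and H2-Aa were not called either.

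Scavenger and apoptotic cell receptors were called for monocytes in 6 of 29 cases and for neutrophils in 5, or 11 and 3 with equal totals. Calls over all tested genes were 12.2% and 11.3%, or 24.7% and 5.18% with equal totals. Msr1, the class A scavenger receptor, stood at 65.6 and 58.3 normalised reads in monocytes and 1.38 and 2.20 in neutrophils, a difference of 4.46 ± 0.37 (adjusted p = 1.14e-07). Lrp1, a large endocytic receptor, and Scarb1, the HDL receptor, were higher in monocytes by 3.86 ± 0.25 and 2.64 ± 0.40. Anxa1, a phospholipid-binding protein that limits inflammation, stood at 305 and 213 normalised reads in monocytes and 7209 and 6308 in neutrophils, higher in neutrophils by 4.72 ± 0.56, and the lipid receptor Cd300lf differed by 4.08 ± 0.58. Without neutrophil replicate 3 or monocyte replicate 2, 3 members were higher in neutrophils.

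Of 23 tested genes of eicosanoid synthesis 7 were higher in neutrophils and 1 in monocytes, or 6 and 4 with equal totals. The monocyte counts lay below the 12.2% of all tested genes, or 24.7% with equal totals. For neutrophils those shares were 11.3% and 5.18%. The 5-lipoxygenase Alox5 stood at 26.4 and 16.1 normalised reads in monocytes and 594 and 774 in neutrophils, a difference of 4.96 ± 0.36 (adjusted p = 3.64e-08). Its activating protein Alox5ap and the hydrolase Lta4h, which makes leukotriene B4, differed by 1.92 ± 0.35 and 2.97 ± 0.52, and the receptor for that product, Ltb4r1, by 3.29 ± 0.47. The cyclooxygenase Ptgs1 was higher in neutrophils by 2.18 ± 0.31. Hpgd, which degrades prostaglandins, was higher in monocytes by 2.01 ± 0.32.

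Cytokine and chemokine genes were split, 9 of 38 tested to neutrophils and 8 to monocytes, or 7 and 10 with equal totals. Over all tested genes the shares were 11.3% and 12.2%, or 5.18% and 24.7% with equal totals. The monocyte count with equal totals was near that share. Il1b and its antagonist Il1rn were both higher in neutrophils, at 2.56 and 7.67 normalised reads in monocytes and 70.3 and 116 in neutrophils for Il1b and 23.9 and 12.3 normalised reads in monocytes and 449 and 356 in neutrophils for Il1rn. Tnfsf13b, the B cell survival factor BAFF, and oncostatin M (Osm) differed by 4.51 ± 0.70 and 3.28 ± 0.72, and Vegfa was listed at 0 in monocytes and at 12.4 and 11 in neutrophils. The TNF family member Tnfsf12 (TWEAK) was higher in monocytes by 3.97 ± 0.45, besides Ccl9. Tnf was called for neutrophils at 0 and 0.767 normalised reads in monocytes and 20.7 and 22 in neutrophils, a call that ended without neutrophil replicate 1, neutrophil replicate 3 or monocyte replicate 1. Without neutrophil replicate 3 or monocyte replicate 1, 5 members of the list were higher in monocytes.

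Of 78 ribosomal protein genes 41 were higher in monocytes and none in neutrophils (median 1.12), against 12.2% of all tested genes for monocytes, and 73 were with equal totals. The list held 7.10% and 7.93% of all normalised reads in monocytes and 2.21% and 1.83% in neutrophils. Rplp1, of the ribosomal stalk, stood at 5229 and 6050.2 normalised reads in monocytes and 1581 and 1026 in neutrophils, a log2 difference of 2.14 ± 0.37 (adjusted p = 3.12e-04). Rpl10a, Rpl12 and Rplp0 differed by 2.46 ± 0.30, 2.18 ± 0.30 and 1.93 ± 0.24. Many ribosomal protein genes have processed copies, so their reads are uncertain. Without neutrophil replicate 3, 20 ribosomal genes passed, and without monocyte replicate 2, 26 passed.

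Translation factors and ribosome biogenesis genes followed, with 19 of 43 higher in monocytes and 1 in neutrophils, or 32 and none with equal totals. Fibrillarin (Fbl), which methylates ribosomal RNA, stood at 68.3 and 76 normalised reads in monocytes and 17.2 and 4.40 in neutrophils, a difference of 2.86 ± 0.49 (adjusted p = 2.97e-04). The initiation factor subunit Eif3b and the snoRNP protein Nhp2 were higher by 1.98 ± 0.35 and 1.86 ± 0.34. The monocyte count was 9 without neutrophil replicate 3, 12 without monocyte replicate 1 and 10 without monocyte replicate 2. Of 75 oxidative phosphorylation subunits 6 were higher in monocytes and 2 in neutrophils on the deposited scale, shares below those of all tested genes, against 34 and none with equal totals. Ndufc2, of complex I, was higher in monocytes by 1.94 ± 0.27. Fewer subunits were higher in monocytes when neutrophil replicate 3 or monocyte replicate 2 was left out.

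Cell cycle and DNA replication genes were higher in monocytes in 23 of 55 cases and in neutrophils in 5 (median 1.99), or 36 and 1 with equal totals. The summed level of the list, to which abundant members add most, overlapped: 4378 and 5857 normalised reads in monocytes and 4952 and 4433 in neutrophils. The replicative helicase subunits Mcm3, Mcm5 and Mcm6 were higher in monocytes by 3.03 ± 0.40, 2.99 ± 0.48 and 2.95 ± 0.53, with Mcm5 at 302 and 272 normalised reads in monocytes and 51 and 24.2 in neutrophils. Cdkn1a, an inhibitor of the cycle, was also higher in monocytes, by 3.07 ± 0.43. The calls of Cdc20 and Bub1b, both of the spindle checkpoint, ended without monocyte replicate 2, that of the replication licensing factor Cdt1 without neutrophil replicate 3, and that of its partner Cdc6 without neutrophil replicate 3 or monocyte replicate 1. The monocyte count was 12 without neutrophil replicate 3, 15 without monocyte replicate 1 and 11 without monocyte replicate 2, and the neutrophil count was between 1 and 3 whichever library was left out. The plot of calls by list sets the scalings side by side.

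**Figure D4:**
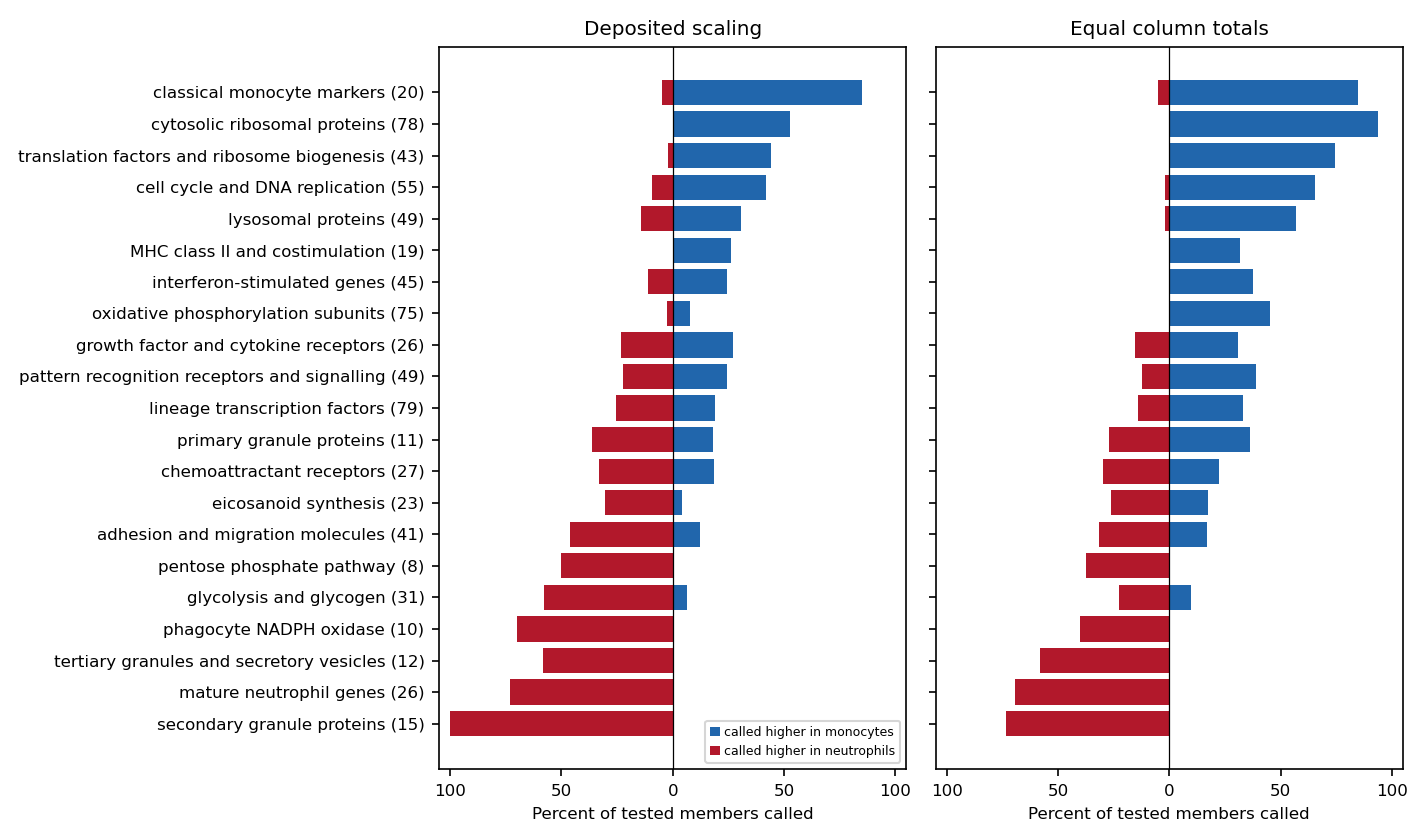
Percent of the tested members of each list that were called higher in monocytes (blue, to the right) or in neutrophils (red, to the left), with the number tested in brackets, on the deposited scale and with equal column totals. Over all tested genes the shares were 12.2% and 11.3% on the deposited scale and 24.7% and 5.18% with equal totals, and the secondary granule, tertiary granule and mature neutrophil lists lean to neutrophils in both panels.

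Interferon-stimulated genes were called for monocytes in 11 of 45 cases and for neutrophils in 5, and in 17 and none with equal totals. All tested genes were called in 12.2% and 11.3% of cases, or 24.7% and 5.18% with equal totals. The neutrophil count on the deposited scale was near its share. Ly6e, an antiviral surface protein, stood at 5643 and 4838 normalised reads in monocytes and 748 and 575 in neutrophils, a difference of 2.99 ± 0.28 (adjusted p = 4.23e-07). The DNA-binding Ifi205, Phf11d, and the GTPases Gbp3 and Ifi47 were higher in monocytes by 4.64 ± 0.42, 4.30 ± 0.70, 3.24 ± 0.60 and 2.58 ± 0.41. Mx1, an antiviral GTPase, was listed at 0 in neutrophils and at 24.7 and 20.7 in monocytes. The 5 genes called for neutrophils included Oas3 (29.5 and 38.3 normalised reads in monocytes and 144 and 216 in neutrophils), an antiviral synthetase, whose call ended with equal totals and without neutrophil replicate 3 or monocyte replicate 1. Whichever library was left out, 2 or 3 genes of the list were higher in neutrophils.

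Chromatin and nuclear envelope genes were split evenly, 5 of 26 to each cell type, or 9 to monocytes and 5 to neutrophils with equal totals. Shares of all tested genes were 12.2% and 11.3%, or 24.7% and 5.18% with equal totals. The peptidylarginine deiminases went opposite ways. Padi4, which citrullinates histones when neutrophils release extracellular traps, stood at 68.2 and 51.4 normalised reads in monocytes and 1003 and 1554 in neutrophils, higher in neutrophils by 4.37 ± 0.66 (adjusted p = 7.65e-05), and Padi2 at 186 and 167 normalised reads in monocytes and 11 and 4.40 in neutrophils, higher in monocytes by 4.44 ± 0.85 (adjusted p = 7.53e-04). The histone demethylase Kdm6b, the envelope protein Sun2 and the nucleosome-binding Hmgn2 were higher in neutrophils by 3.50 ± 0.69, 3.22 ± 0.29 and 2.17 ± 0.42. The architectural protein Hmga1 was higher in monocytes by 2.54 ± 0.51. Without monocyte replicate 2, 2 members of the list were higher in monocytes.

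Markers of other cell types were examined in each library. Summed B cell markers came to 52.9 and 61.2 normalised reads in monocytes and 306 and 28.6 in neutrophils, and erythroid markers to 9112 and 14590 in monocytes and 44120 and 13126 in neutrophils. In both sums, as for Mpo, neutrophil replicate 1 was the highest. Globin (Hba-a1, which shares all its values with its copy Hba-a2) stood at 3548 and 5909 normalised reads in monocytes and 17872 and 5471 in neutrophils. Cd79b, a B cell receptor chain, stood at 43.5 and 53.2 normalised reads in monocytes and 116 and 11 in neutrophils, and Vpreb3, of precursor B cells, was listed at 0 except in neutrophil replicate 1 (51.0). Of 12 B cell markers 2 were higher in neutrophils (7 without neutrophil replicate 3, and 1 with equal totals or without neutrophil replicate 1 or monocyte replicate 2), and of 17 erythroid markers 1 was (5 without neutrophil replicate 3, and 0 with equal totals or without monocyte replicate 1). Of all tested genes 11.3% were higher in neutrophils, or 5.18% with equal totals. The B cell counts were near these shares and the erythroid counts below them. The part of B and erythroid cells in the differences was not tested.

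Megakaryocyte and platelet markers summed to 23.9 and 51.4 in monocytes and 1126 and 1446 in neutrophils, and 5 of 8 were higher in neutrophils (3 without neutrophil replicate 3 or monocyte replicate 1, and 4 with equal totals). Most of that sum was Gp1bb, at 5.11 and 3.84 normalised reads in monocytes and 989 and 1035 in neutrophils, a platelet glycoprotein gene that overlaps Septin5, so their reads cannot be told apart; the platelet chemokine Pf4 stood at 5.97 and 19.2 normalised reads in monocytes and 23.4 and 123 in neutrophils, and its call ended with equal totals. Eosinophil, basophil and mast cell markers summed to 124 and 159 in monocytes and 1215 and 1461 in neutrophils, largely Hdc, and 5 of 10 were higher in neutrophils (3 with equal totals, and 3 without neutrophil replicate 1 or either monocyte library). T and NK cell markers summed to 16.2 and 10.7 in monocytes and 134 and 63.7 in neutrophils; 1 of 14 (2 without neutrophil replicate 1 or 3), Cd3d of the T cell receptor complex, was higher in neutrophils, listed at 0 in monocytes and at 33.1 and 33 in neutrophils. Stem and progenitor markers summed to 247 and 199 in monocytes and 1275 and 1314 in neutrophils. There the factor Erg and the secreted Egfl7 were higher in neutrophils by 5.30 ± 0.86 and 3.52 ± 0.42, and Cd48 in monocytes by 4.82 ± 0.65. Of all tested genes 11.3% were higher in neutrophils, or 5.18% with equal totals, and the T and NK cell count was near these shares. The part of these cell types in the differences was not tested.

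Macrophage and dendritic cell markers are set against the 12.2% of all tested genes called for monocytes and the 11.3% called for neutrophils. Of 19 mature macrophage markers 3 were higher in monocytes and 2 in neutrophils, with 1 in neutrophils under equal totals or without either neutrophil library or monocyte replicate 2, and with sums of 1622 and 1152 in monocytes and 1809 and 1789 in neutrophils. Adgre1, a surface receptor of macrophages and monocytes, was higher in monocytes by 2.24 ± 0.33, and the iron exporter Slc40a1 stood at 2.56 and 6.90 normalised reads in monocytes and 158 and 163 in neutrophils, higher in neutrophils by 4.90 ± 0.60. The neutrophil libraries held C1qa, a macrophage complement chain, at 239.8 and 255, and the monocyte libraries at 137 and 76.7, a call that ended with equal totals and without either neutrophil library or monocyte replicate 2. Of 12 dendritic cell markers 3 were higher in monocytes (1 without neutrophil replicate 3 or either monocyte library), among them Cd209a, listed at 0 in neutrophils and at 26.4 and 17.6 in monocytes. Of 10 Kupffer cell genes 2 were higher in neutrophils, and of 11 lung macrophage genes 2 were on the deposited scale and 0 with equal totals or whichever library was left out. Of 11 stroma and endothelium markers 2 were higher in neutrophils, with 0 or 1 when a library was left out and none with equal totals. The plot of summed lists shows which library was highest in each.

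**Figure D5:**
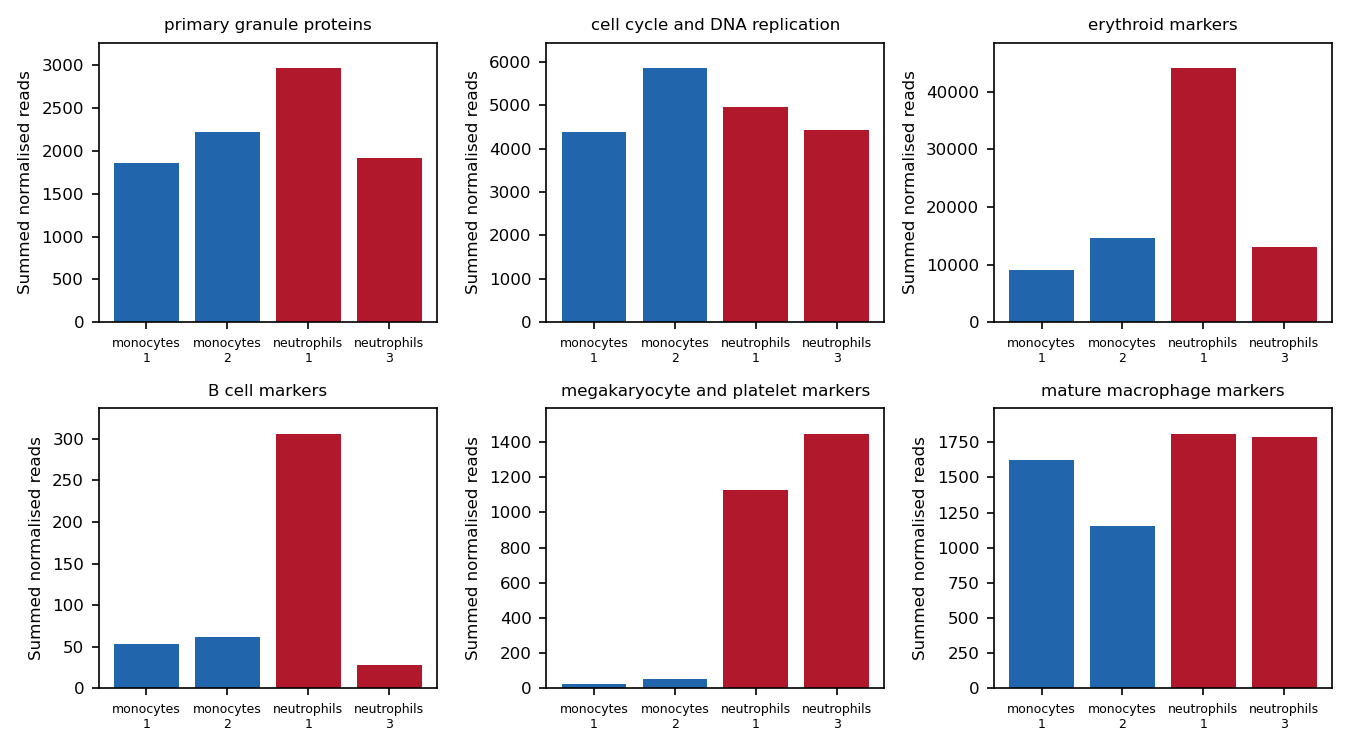
Summed normalised reads of 6 lists in each of the 4 libraries, with monocytes in blue and neutrophils in red, each bar 1 library and each axis starting at 0. Erythroid (44120) and B cell (306) sums are highest in neutrophil replicate 1, megakaryocyte and platelet sums are high in both neutrophil libraries, and primary granule and cell cycle sums overlap between the groups.

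Beyond the lists, the 12 called genes with the highest difference towards monocytes without overlap of the groups included several not named above. Nupr1, a stress-induced nuclear protein, was listed at 0 in neutrophils and at 80.1 and 52.2 in monocytes. So were Adora2b, an adenosine receptor (54.6 and 74.4), and Pdxk, which makes the active form of vitamin B6 (42.2 and 46). The receptor phosphatase Ptpro stood at 192 and 149 normalised reads in monocytes and 1.38 and 2.20 in neutrophils, a difference of 5.89 ± 0.52, and the mitochondrial dehydrogenase Aldh1b1 at 110.0 and 118 normalised reads in monocytes and 2.76 and 0 in neutrophils. Phf11b and Otulinl differed by 5.69 ± 0.47 and 5.45 ± 0.49. At the other end, Mrgpra2b and Mrgpra2a, G protein-coupled receptors of the Mas-related family, stood below 2 normalised reads in monocytes. In neutrophils Mrgpra2b stood at 1037 and 1108 and Mrgpra2a at 709 and 697. They are near-identical copies whose reads are uncertain. Chil1, a chitinase-like protein, stood at 11.1 and 12.3 normalised reads in monocytes and 2640.1 and 3332 in neutrophils, a difference of 7.86 ± 0.64 (adjusted p = 1.11e-07). Amer2 and Ankrd22 were listed at 0 in monocytes. In neutrophils Amer2 stood at 238 and 233 and Ankrd22 at 230.1 and 224.

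The 6 spleen, Kupffer and lung macrophage libraries of the same experiment give a further reference, as levels and without a test. Their highest library stood at 9.08 normalised reads for Ccr2, 19.8 for F13a1 and 22.8 for S100a4, all below both monocyte libraries. For Csf1r it stood at 4512, above both monocyte libraries, and for Irf8 at 757. The highest of the 6 libraries stood at 411 for Camp, 519 for Ltf and 598 for S100a9, above both monocyte libraries for each. For Chil3 it stood at 8072, below both neutrophil libraries. Summed secondary granule genes, Chil3 among them, came to 16795 and 21916 normalised reads in lung macrophages. They came to 2022 and 4174 in Kupffer cells and 2235 and 3653 in spleen red pulp macrophages. For Cebpe the highest macrophage library stood at 33.6 and for Cxcr2 at 12.2.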

How the data were processed

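Messenger RNA was measured in 18 libraries of 9 populations, 2 each. The deposited table holds 1 signal value per transcript and library, normalised reads made by the authors by scaling each library. Reads were aligned with TopHat to mouse build mm9, per the submitters' processing notes; its version, the counter, the annotation and the normalisation tool were not stated there. In the 4 libraries compared, 86.8% to 87.8% of values were whole multiples of what 1 read is worth (tolerance 0.01 read), which gave the depth of each library; too few were whole for a count test.

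Of 20814 transcripts, 20368 were matched by accession to RefSeq symbols, 235 had no symbol, and the transcript with the highest mean stood for each of 16221 genes. Genes with at least 5.53 normalised reads in 2 of 18 libraries (12014) were tested on log2(value + 1.11) with limma 3.58.1 in R 4.3.3, with a mean-variance trend, in 1 fit of 9 populations with 9 residual degrees of freedom, and Benjamini-Hochberg adjustment over all tested genes. The fit was tested on simulated data. Tables and plots used Python 3.11.15 with pandas 2.3.3, numpy 2.4.6 and matplotlib 3.10.9.

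The comparison and the gene lists were chosen with earlier results of these data known, so lists are described by counts and medians with no test. Named were the 12 called genes at each end without overlap of the groups, members of the lists of granule, monocyte, neutrophil, receptor and factor genes, and, of each other list, at most 8 called members (those of largest absolute difference) and 3 uncalled ones (those of highest mean). Alternatives were equal column totals, median-of-ratios and quantile scaling, other pseudocounts and filters, the mean over transcripts, fewer libraries in the fit, no trend, and leaving out each library. Leaving out 1 library leaves its group with 1, which is assumed to vary like the other groups. Promoters came from RefSeq, build GRCm38.p6.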

Additional observations from a re-analysis of the deposited data

How the results depend on the processing

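The number of genes called was 2821. With equal column totals 2964 genes were higher in monocytes and 622 in neutrophils, so 82.7% of calls lay with monocytes, against 51.8% on the deposited scale. With equal totals computed without the 50 highest neutrophil genes, chosen after seeing the data, the share was 67.2%. With the 4 libraries fitted alone 1575 genes were called, 636 of them (40.4%) higher in monocytes. Leaving out each library gave 1772 to 2412 calls, 849 to 1341 higher in monocytes and 923 to 1071 in neutrophils, 47.6% to 55.6% for monocytes. The other alternatives kept both counts within 1.5 times the reported ones. Under quantile normalisation Lyz2 had a log2 difference, monocytes minus neutrophils, of 0.96 (-1.36 as reported), and Laptm5, not called as reported (-0.04), one of 1.13; the cause was not tested. Of 289 called genes that could be named, 160 were called under every alternative, 42 lost the call with equal totals and 88 with the 4 libraries alone. No paired analysis was possible because the groups share only replicate number 1. Depth limits genes near the 3-read floor, and 2 libraries per group limit the precision of every value.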

Other observations

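Of 15 markers of non-classical monocytes, the Ly6C-low patrolling cells, 6 were higher in monocytes and 2 in neutrophils, or 7 and 2 with equal totals, and without monocyte replicate 1 there were 2 higher in monocytes. All tested genes gave 12.2% for monocytes and 11.3% for neutrophils, or 24.7% and 5.18% with equal totals. The neutrophil count on the deposited scale was near its share. Cd9 and Itgax were the members higher in neutrophils, and Spn, Treml4 and Adgre4 were among those not called. Ace, the angiotensin-converting enzyme, was listed at 0 in both neutrophil libraries and stood at 32.4 and 45.3 in monocytes. Nr4a1, required for these cells, stood at 72.5 and 63.7 normalised reads in monocytes and 12.4 and 11 in neutrophils, a call that ended without neutrophil replicate 3 or monocyte replicate 1. Of 29 complement and coagulation genes 5 were higher in monocytes and 10 in neutrophils, or 6 and 5 with equal totals. The same shares of all tested genes were 12.2% and 11.3%, or 24.7% and 5.18% with equal totals. Plaur, the urokinase receptor, stood at 58.8 and 60.6 normalised reads in monocytes and 532 and 853 in neutrophils, higher in neutrophils by 3.47 ± 0.55 on the log2 scale (adjusted p = 1.31e-04). Without 1 of the 4 libraries the monocyte count of this list was between 1 (neutrophil replicate 3) and 4, and the neutrophil count between 4 (neutrophil replicate 3) and 6.

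Heme and iron genes were higher in neutrophils in 6 of 22 cases and in monocytes in 4, or 3 and 4 with equal totals. The matching shares of all tested genes were 11.3% and 12.2%, or 5.18% and 24.7% with equal totals. The monocyte count lay below its share with equal totals. The neutrophil calls that held with equal totals were Lcn2, Ltf and Slc40a1, the first 2 also counted as secondary granule genes. The monocyte count was 1 without neutrophil replicate 3 and 2 without monocyte replicate 1 or 2. Of 35 apoptosis and pyroptosis genes 2 (5.71%) were higher in monocytes and 4 (11.4%) in neutrophils, against 12.2% and 11.3% of all tested genes, or 11 and 2 with equal totals. The survival factor Bcl2l1 was higher in neutrophils by 1.94 ± 0.36 and the inflammasome adaptor Pycard in monocytes by 1.32 ± 0.27, with Pycard at 729 and 665 normalised reads in monocytes and 231 and 334 in neutrophils. The neutrophil count was 1 without neutrophil replicate 1 and 2 without any other of the 4 libraries.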
